A study of Mus musculus with 12 samples.

Results

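After 72 h of reprogramming, 1853 accessible regions were called as peaks in Zfp266 KO cells that had no counterpart in the control peak list. A region was taken from the reprogramming KO list when its −log10 q was 5 or more, when no reprogramming control peak overlapped it by 1 bp, and when it overlapped none of the intervals that the authors listed as differing between reprogramming KO and control. The −log10 q is the peak caller's measure of how far the reads rise above background, with higher values for stronger peaks. These 1853 KO-only peaks were 1.13% of the 163315 peaks in that list and 1.59% of the 116373 peaks past the same q limit. The 4 deposited lists together held 661623 peaks. Because the peak calls themselves chose the regions, their presence in KO, their absence from the control list, their q values and their fold enrichment are given below as a description, with no test.

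The assay was Omni-ATAC-seq, in which the Tn5 transposase inserts sequencing adapters into open chromatin. There were 4 groups of 3 libraries with 50000 cells each. The cells were passage 2 fibroblasts of strain 129 from E12.5 mouse embryos (MEF), which carried Cas9 from the Rosa26 locus, a Nanog-GFP reporter and a doxycycline-inducible cassette for OCT4, SOX2, KLF4 and MYC (OSKM). All 4 groups carried these alleles, controls included. Control cells (labelled wild type) received a non-targeting guide RNA and KO cells (labelled Zfp266 KO) a guide RNA against Zfp266, in a transduced pool of cells. The MEF groups stayed in MEF medium for 96 h after transduction, and the reprogramming groups received 300 ng/ml doxycycline and 10 ug/ml vitamin C for the last 72 h and were sorted for cells that expressed the factors. Per the methods, the embryos were chimeric. The reprogramming cultures were seeded together with wild-type MEFs, and no such mixing is described for the MEF cultures.

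ZFP266 is a zinc finger protein with a KRAB domain, a domain that recruits heterochromatin-forming co-repressors to the DNA the fingers bind. B1 and B2 are short interspersed nuclear elements (SINEs), abundant mouse retrotransposons that zinc finger proteins of this class can bind. CTCF is a zinc finger protein that marks the anchors of chromatin loops, and some B2 copies carry its binding motif.

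The sequences below show what the strongest KO-only peaks hold. They were read from the plus strand of GRCm38.p6, which is a reference of another strain than the cells. Capitals mark the letters of 9-base words that recognise B1 or B2 elements, or a 12-letter loose form of the CTCF core motif, on either strand. The first 5 are the peaks with the largest −log10 q, named by the nearest protein-coding gene.
Kcnf1 (chr12:17180908-17181153): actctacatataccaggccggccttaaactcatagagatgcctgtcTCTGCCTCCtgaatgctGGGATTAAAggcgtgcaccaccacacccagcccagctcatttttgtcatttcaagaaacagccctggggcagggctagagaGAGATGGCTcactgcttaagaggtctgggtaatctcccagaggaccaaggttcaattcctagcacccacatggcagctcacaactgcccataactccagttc
Cntnap5a (chr1:113904031-113904276): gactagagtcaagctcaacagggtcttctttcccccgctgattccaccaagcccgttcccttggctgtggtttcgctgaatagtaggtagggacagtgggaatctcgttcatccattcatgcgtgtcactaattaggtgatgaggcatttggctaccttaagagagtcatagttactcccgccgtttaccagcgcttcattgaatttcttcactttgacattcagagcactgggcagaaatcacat
Pacsin2 (chr15:83483569-83483789): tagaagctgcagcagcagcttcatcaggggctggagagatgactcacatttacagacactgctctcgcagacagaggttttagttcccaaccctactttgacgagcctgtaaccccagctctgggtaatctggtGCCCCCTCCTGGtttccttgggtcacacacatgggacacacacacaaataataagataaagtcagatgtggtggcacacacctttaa
Wtap (chr17:12996461-12996665): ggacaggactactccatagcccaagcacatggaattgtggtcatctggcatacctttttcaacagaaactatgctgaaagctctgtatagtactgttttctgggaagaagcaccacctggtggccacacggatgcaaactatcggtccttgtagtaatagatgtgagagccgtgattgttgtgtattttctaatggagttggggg
Serpinb9b (chr13:33030395-33030598): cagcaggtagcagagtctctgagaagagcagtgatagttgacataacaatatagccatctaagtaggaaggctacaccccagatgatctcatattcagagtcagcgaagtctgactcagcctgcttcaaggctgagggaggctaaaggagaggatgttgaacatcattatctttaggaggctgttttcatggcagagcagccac

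The Kcnf1 peak held 2 B1 words and, in its second part, 1 B2 word. The Pacsin2 peak held the CTCF string, and the Cntnap5a, Wtap and Serpinb9b peaks held no marked letters. The next 3 sequences come from peaks discussed further on. The Ddx19b and Rab11fip3 peaks lay in intervals that also differed in MEFs, and the Tet2 peak lay in a gene of a fixed list. In the Tet2 peak the CTCF string stood close to 2 of 3 B2 words, and the Rab11fip3 peak held the string with a single B2 word, below the 2 words asked for in the counts below.
Ddx19b (chr8:111029629-111029871): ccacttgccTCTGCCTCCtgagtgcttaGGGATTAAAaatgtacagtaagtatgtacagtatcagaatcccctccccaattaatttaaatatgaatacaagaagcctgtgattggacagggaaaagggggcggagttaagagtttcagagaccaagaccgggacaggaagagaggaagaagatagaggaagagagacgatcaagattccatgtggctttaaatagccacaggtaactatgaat
Rab11fip3 (chr17:26078129-26078423): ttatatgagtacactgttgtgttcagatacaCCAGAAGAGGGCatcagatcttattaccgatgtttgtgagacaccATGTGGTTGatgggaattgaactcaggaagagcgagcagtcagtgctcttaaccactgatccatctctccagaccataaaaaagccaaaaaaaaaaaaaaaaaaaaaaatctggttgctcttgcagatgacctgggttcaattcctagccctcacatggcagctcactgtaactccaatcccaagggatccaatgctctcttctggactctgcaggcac
Tet2 (chr3:133519123-133519380): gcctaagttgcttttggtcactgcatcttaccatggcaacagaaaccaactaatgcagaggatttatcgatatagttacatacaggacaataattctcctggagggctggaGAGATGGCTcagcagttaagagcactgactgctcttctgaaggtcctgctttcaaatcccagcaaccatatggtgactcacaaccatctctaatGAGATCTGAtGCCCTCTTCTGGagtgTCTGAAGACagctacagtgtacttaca

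The KO-only peaks were short and weak. Their length ran from 201 to 2464 bp with a median of 281 bp, and 41 were longer than 1000 bp. Fold enrichment over background ran from 1.56 to 5.68 with a median of 2.67, and 16 peaks reached a fold of 4. The −log10 q ran up to 37.9 with a median of 6.81. It was below 6 in 601 peaks, below 10 in 1587 and 20 or more in 19. A narrow sub-peak, called inside a broad peak at the stricter of the caller's cut-offs, was present in 1539 peaks (83.1%), against 93.1% of all reprogramming KO peaks. Just inside the limit stood a peak nearest Dgkb with a −log10 q of 5.0034 and a peak in an intron of Phf20 with 5.0036. Just outside it stood peaks in introns of Fnbp1 and Herc4, with 4.9993 and 4.9987.

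**Figure D1:**
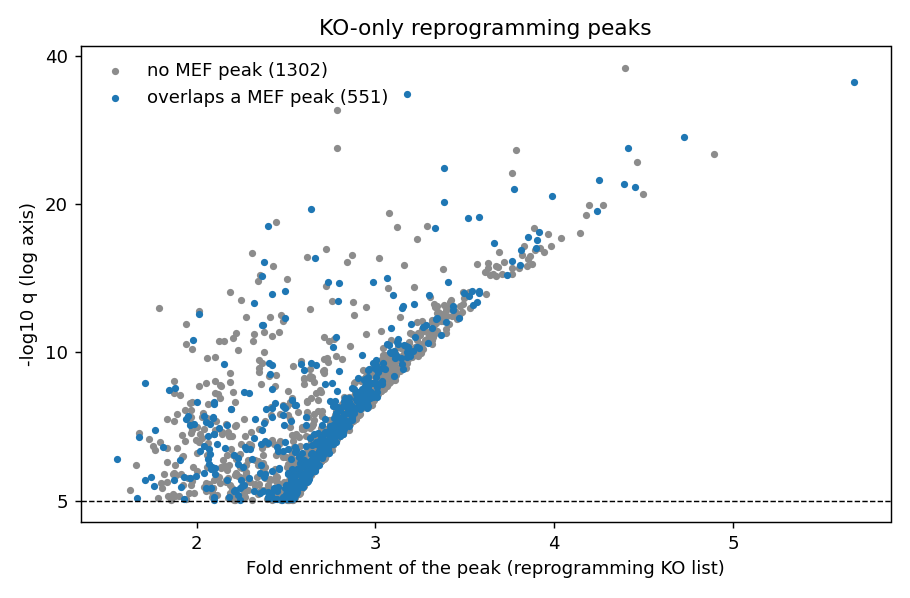
Fold enrichment (horizontal axis) and −log10 q (vertical log axis) of the 1853 KO-only reprogramming peaks, each a point, in blue where a MEF peak overlapped it and in grey where none did. The dashed line is the limit of 5; most points sit close to it, with folds between 2 and 3, and blue and grey points cover the same range.

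The peaks lay apart from control peaks rather than at their edges. The nearest reprogramming control peak was 418 bp away at the closest and 3856 bp away at the median, and it was within 1000 bp for 97 peaks (5.23%). The mirrored choice, control peaks of −log10 q 5 or more with no KO peak and no listed interval, gave 3608 control-only peaks, 2.95% of the 122374 control peaks past the limit. So the peaks unique to the control list outnumbered those unique to the KO list. The control-only peaks lay further from the other list, with the nearest reprogramming KO peak 5615 bp away at the median. It was within 1000 bp for 154 of them (4.27%). The control-only peaks had a median length of 268 bp, a median fold of 2.65 and a median −log10 q of 6.85, but reached further up, to a fold of 9.47 and a −log10 q of 457. A single list per group was deposited, although the methods describe peak calling for each sample, so neither count has a replicate error. The size factors, which scale with the reads of each library, ran from 0.766 to 1.10 in the 3 reprogramming control libraries and from 0.630 to 1.09 in the 3 KO libraries, and the part of depth in the counts was not tested. Read counts of the KO-only peaks in the individual reprogramming libraries were not used here. A region without a control peak was therefore not shown to be closed in control cells.

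As a check of the cell labels, all 7 fibroblast genes examined (Col1a1, Col1a2, Thy1, Pdgfrb, Twist2, Prrx1 and Postn) had a peak over a start site in both MEF lists, and 5 of 7 had one in both reprogramming lists. Of 5 epithelial genes, 4 had one in both MEF lists and 5 in both reprogramming lists. Presence alone was counted, and the folds moved both ways. At Cdh1 the fold was 4.65 in MEF control and 2.78 in reprogramming control, and at Krt18 it was 2.01 and 3.04. Of 6 pluripotency genes, Sox2 and Esrrb had one in all 4 lists, Pou5f1 in both MEF lists alone and Zfp42 in both reprogramming lists alone, while Nanog and Dppa5a had none. Of 4 blood and endothelial genes, Cd68 had one in all 4 lists and Ptprc, Pecam1 and Cdh5 had none. In a bulk sample, fewer open cells and less opening per cell cannot be told apart. The start site of Zfp266 itself had a peak in all 4 lists, with folds from 4.52 to 5.46. A guide RNA that makes a small cut in the gene need not close its promoter, so this does not check the KO.

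Whether the KO-only peaks were open before reprogramming was read from the MEF lists. Of the 1853 peaks, 1302 (70.3%, 95% Wilson interval 68.1 to 72.3) overlapped no MEF peak of either genotype. Another 459 (24.8%) overlapped a peak in both MEF lists, 42 (2.27%) in the MEF control list alone and 50 (2.70%) in the MEF KO list alone. In all, 501 (27.0%) were open in the MEF control list and 509 (27.5%) in the MEF KO list. Open chromatin in MEFs was thus about as frequent at these regions with and without Zfp266. Weak peaks that KO and control shared in reprogramming, those with −log10 q from 5 to below 10 and outside the listed intervals, overlapped both MEF lists in 12116 of 31119 cases (38.9%). These shared peaks were longer, with a median of 514 bp against 281 bp in KO-only peaks. Among control-only peaks the share was 698 of 3608 (19.3%, interval 18.1 to 20.7). When at least 50% of a peak had to be covered in each MEF list, the shares overlapping both, a joint count added after values had been seen, were 22.0% of KO-only peaks (interval 20.2 to 24.0), 29.3% of the weak shared peaks and 17.3% of control-only peaks. The intervals given for all shares cover counting error only, and no difference between shares was tested.

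At the 459 KO-only peaks that overlapped both MEF lists, the median fold was 3.75 in MEF control and 3.59 in MEF KO, against 2.66 in the reprogramming KO list. The rule acts on the reprogramming lists and leaves mostly weak peaks there, so this order is a description only. The MEF control fold was above the reprogramming KO fold in 376 of the 459 (81.9%), and the same held for 77.8% of the 12116 weak shared peaks. At the 698 control-only peaks, which have no reprogramming KO fold, it was above the reprogramming control fold in 77.9%. The MEF KO fold was above the MEF control fold in 171 of the 459 (37.3%) and below it in 288, with a median log2 ratio of -0.05. Among all 70554 reprogramming KO peaks that overlapped both MEF lists it was above in 40.3%, with a median log2 ratio of -0.03. The peak in the Cntnap5a row of the sequences above is of this kind. Its fold was 7.18 in MEF control, 6.45 in MEF KO and 5.68 in reprogramming KO. Cntnap5a encodes a neurexin-family adhesion protein. Its start site was 1780602 bp away, and the peak itself lay in an intron of the gene model 9330185C12Rik. The peak upstream of Pacsin2, which encodes a membrane-bending protein of endocytosis, had a fold of 3.55 in MEF control, 7.58 in MEF KO and 3.18 in reprogramming KO. The peak nearest Bcas2, a component of the spliceosome, had folds of 5.50, 4.86 and 4.41 in the same order.

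The 50 peaks (2.70%) seen in both KO lists and in neither control list are a share near those of all reprogramming KO peaks (1.91%) and of weak shared peaks (2.00%) that overlapped the MEF KO list alone. The strongest, chosen by q after the values were seen, lay in an intron of Serpinb9b, a serpin-family protease inhibitor gene, 3081 bp into the gene (chr13:33030395-33030598). Its fold was 4.73 in reprogramming KO and 2.16 in MEF KO, with −log10 q of 27.4 and 10.9. The second lay over the start site of Cxcr6, the receptor for the chemokine CXCL16 (chr9:123806394-123806618). There the fold was 3.74 in reprogramming KO and 2.96 in MEF KO. The Cxcr6 gene overlaps Fyco1, so the annotation does not assign the region to a single gene. The others among the strongest were nearest Kcnh2, a potassium channel gene (fold 2.79 and 2.64), in an intron of Cnot1, the scaffold of the CCR4-NOT deadenylase (3.35 and 2.40), and in an intron of Slc16a1, a lactate transporter gene (1.98 and 1.41).

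A replicated measurement was available for 6 KO-only peaks, because they overlapped intervals of the authors' MEF table. That table lists read counts in the 6 MEF libraries for the 480 intervals that passed the authors' test of MEF KO against MEF control. The choice of KO-only peaks did not use MEF data, but the 6 intervals are visible only because they had passed that test on the same libraries, so their retest is not independent evidence. The test used here ran on the 480 listed intervals and called 477 higher and 1 lower in MEF KO, which is 0.175% and 0.000366% of the 273256 merged intervals of the 4 lists over which its p-values were adjusted. Of the 1853 KO-only peaks, 6 (0.32%, interval 0.15 to 0.70) overlapped a listed MEF interval, against 0.175% of all reprogramming KO peaks and 0 of the 3608 control-only peaks, which by the limit of 3 counts allows a share of up to 0.0831%. All 6 were higher in MEF KO, except that TMM scaling over the listed rows alone turned Rapgef5, Rab11fip3 and Ddx19b slightly negative and left none of the 6 past the limit (adjusted p = 1 for each, edgeR; at an unadjusted p under 0.05, Upp2 and Atg13 passed). The 3 KO and the 3 control libraries did not overlap in any of them. The listed intervals had been selected for a difference between these libraries, and the share of all 480 without overlap was not counted.

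The Ddx19b interval coincided with the KO-only peak (chr8:111029629-111029871), in an intron of this gene for an RNA helicase of mRNA export. Its normalised read counts were 33.1, 32.1 and 38.2 in the MEF control libraries and 79.5, 59.7 and 59.6 in the MEF KO libraries. It had no peak in either MEF list. The log2 fold change was 0.95 ± 0.18 (SE, n = 3 per group, adjusted p = 0.00011, edgeR). This interval was the narrowest of the 6, and the peak in it was printed above with 2 B1 words.

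The Atg13 interval, in an intron of a gene of autophagy initiation, had counts of 10.8, 14.7 and 15.3 in MEF control and 50.8, 45.3 and 54.5 in MEF KO. Its log2 fold change of 1.89 ± 0.24 (SE, adjusted p = 6.88e-12, edgeR) was within its SE of that of Upp2, given next. The KO-only peak covered 87.6% of the interval, and B1 words were found in its window. The Upp2 interval, in an intron of a uridine phosphorylase gene, had the lowest counts, with 8.63, 8.25 and 12.4 in MEF control and 48.4, 25.4 and 30.3 in MEF KO. Its log2 fold change was 1.83 ± 0.29 (SE, adjusted p = 3.41e-07, edgeR).

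The Vgf interval lay 16134 bp upstream of the start site of this neuropeptide precursor gene. Its counts were 34.5, 46.7 and 51.6 in MEF control and 97.5, 85.7 and 99.96 in MEF KO, and the log2 fold change was 1.10 ± 0.16 (SE, adjusted p = 2.46e-08, edgeR). In the last 2 intervals the KO-only peak was only a part of what was counted. It covered 17.8% of the Rapgef5 interval and 21.97% of the Rab11fip3 interval. In the Rapgef5 interval, in an intron of an exchange factor gene for RAP GTPases, counts were 110.0, 106.3 and 103.3 in MEF control and 233.6, 200.2 and 209.0 in MEF KO. The log2 fold change was 1.00 ± 0.11 (SE, adjusted p = 2.09e-17, edgeR). In the Rab11fip3 interval, 8721 bp upstream of the start of a gene for a RAB11 effector, counts were 27.3, 30.2 and 32.5 in MEF control and 54.9, 56.2 and 57.5 in MEF KO. The log2 fold change was 0.91 ± 0.19 (SE, adjusted p = 0.0012, edgeR). The adjusted p rose to 0.081 for Rab11fip3 without MEF control replicate 1 and to 0.0503 for Ddx19b without MEF KO replicate 1, both above the limit of 0.05. Without scaling, these 2 intervals also missed the limit (adjusted p = 0.78 and 0.45, edgeR).

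The mean over the 6 reprogramming libraries, control and KO pooled, could be worked out for these intervals from the mean of all 12 libraries that the authors give. It was 96.9 normalised counts at Ddx19b, above the mean of 50.3 over the 6 MEF libraries. At Rapgef5 it was 69.8 against 160.4, and at Vgf 35.0 against 69.3. At Upp2 it was 32.1 against 22.2, at Atg13 41.8 against 31.9, and at Rab11fip3 42.2 against 43.1. The intervals thus differed in which context had the higher pooled mean. At Atg13 the reprogramming mean lay between the means of MEF control (13.6) and MEF KO (50.2). The same held at Upp2 (9.77 and 34.7) and Rab11fip3 (30.0 and 56.2), so there the order depends on the MEF genotype. No difference between contexts was tested.

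**Figure D2:**
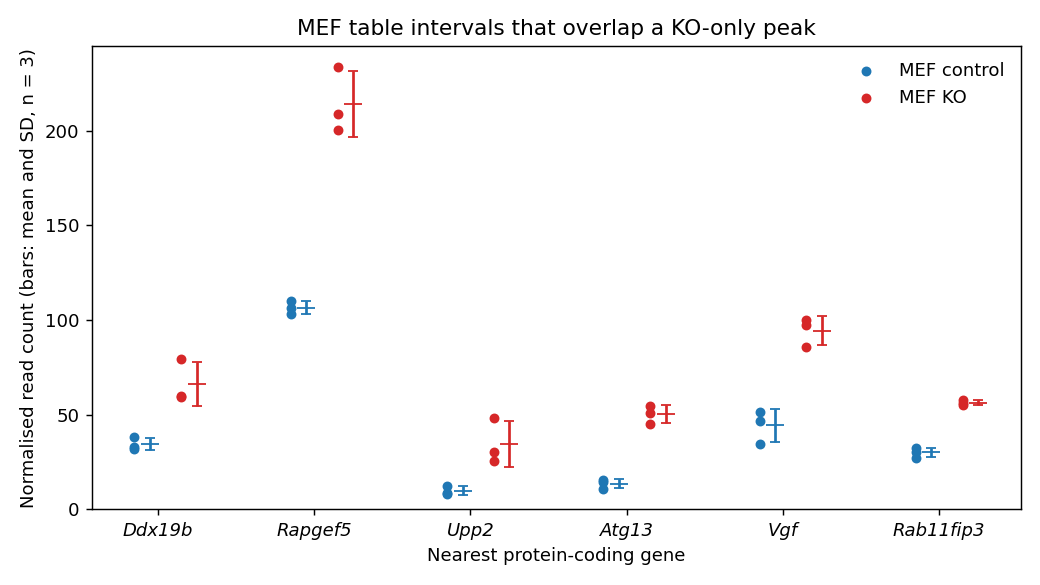
Normalised read counts of the 6 MEF table intervals that overlap a KO-only reprogramming peak, named by nearest gene; each point is a library, and the bars give the mean and SD of 3 libraries. In every interval the 3 MEF KO libraries (red) sit above the 3 MEF control libraries (blue), and all 6 had been listed for a difference between these libraries.

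By their midpoints, 961 KO-only peaks (51.9%, interval 49.6 to 54.1) lay in introns, 766 (41.3%) between genes, 92 (4.96%) in exons and 34 (1.83%) within 1000 bp of a protein-coding start site. Promoters were thus rare among them, against 10.0% of all reprogramming KO peaks and 4.48% of the weak shared peaks. Control-only peaks had a like promoter share, 1.36%, but fewer lay in introns (42.7%, interval 41.1 to 44.3) and more between genes (51.7%, interval 50.1 to 53.3). The median distance to the nearest protein-coding start site was 24579 bp, and 382 peaks were over 100 kb away. The peaks were spread over 1674 nearest genes, of which 1515 had a single one. No gene had more than 4. Arrdc3, Tenm3 and Utrn had 4 each, and of these 12 peaks none held B1 words or the CTCF string. Each of the 3 genes was also the nearest gene of 74 to 130 reprogramming KO peaks in all.

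**Figure D3:**
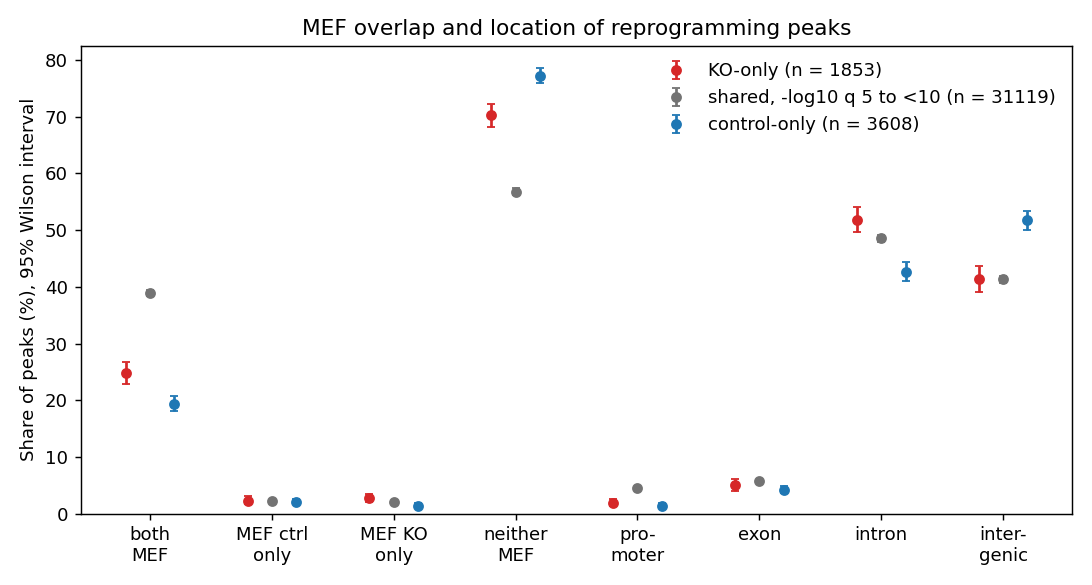
Share of peaks (vertical axis, percent, with 95% Wilson intervals) by overlap with the MEF lists and by location of the midpoint, for KO-only peaks (red), weak peaks shared by KO and control (grey) and control-only peaks (blue). KO-only peaks overlap neither MEF list in 70.3% of cases and the longer shared peaks in 56.8%, and KO-only peaks lie in introns more often than control-only peaks do (51.9% against 42.7%).

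The 10 peaks of largest −log10 q included 3 that lay a few kilobases upstream of a gene. The first, with the highest −log10 q (37.9) and a fold of 4.40, lay 4143 bp upstream of Kcnf1, which encodes a modifier subunit of voltage-gated potassium channels. Another, with a fold of 2.79, lay 3957 bp upstream of Lactb2, which encodes a mitochondrial endoribonuclease, and its window held B1 words. The third, with a fold of 2.78, lay 2394 bp upstream of Wtap, a subunit of the RNA m6A methyltransferase. Neither MEF list had a peak at any of the 3. The other members of the top 10 not yet named were in an intron of Parn, a poly(A) ribonuclease gene (fold 4.46, with the CTCF string and 4 of 4 B2 words in its window), between genes nearest Plppr1 (fold 4.89, with the CTCF string), and nearest Gm6337 (fold 3.79). Neither the Plppr1 peak nor the Gm6337 peak held a narrow sub-peak.

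Of the 34 peaks near a start site, 3 had a −log10 q of 10 or more. Beside that of Cxcr6, they lay 250 bp inside Trappc11, a subunit of a vesicle tethering complex, and 881 bp inside Mindy1, a deubiquitinase gene. The Trappc11 peak had a fold of 3.53 in reprogramming KO and 5.96 and 5.77 in MEF control and MEF KO. The Mindy1 peak had a fold of 2.25 and no MEF peak. The next by q were at Gm4353, Limch1, Platr25, Ccser1, Zfp846, Mypn and Ano10, with folds from 2.96 to 3.21. Limch1 had a MEF control peak, and the other 6 had a peak in neither MEF list. The Ano10 window held the CTCF string and the Gm4353 window B1 words.

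The 6 fixed lists were searched for peaks whose nearest protein-coding gene was on the list and within 100 kb. The pluripotency list of 26 genes had 4 peaks (0.216% of KO-only peaks, against 0.160% of all reprogramming KO peaks). They lay 32476 bp downstream of the start of Myc, 39557 bp upstream of Mycn, in an intron of Tet2, which oxidises methylated cytosine, and 98407 bp upstream of Tbx3, a T-box factor of naive pluripotency. Their folds were 2.55, 2.78, 1.97 and 2.60, and none had a MEF peak. The epithelial list of 20 genes had 2 peaks (0.108% against 0.0937%), of which the 1 reported here lay in an intron of Grhl2, an epithelial transcription factor gene. The Grhl2 peak had a fold of 2.77, and 3.87 and 4.24 in MEF control and MEF KO.

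The list of 24 fibroblast genes had 1 peak (0.0540% against 0.165%), 52813 bp downstream of the start of the growth factor receptor gene Pdgfra, with a fold of 2.49 in reprogramming KO and 2.06 in MEF KO. The list of 18 AP-1 and somatic factors had 2 (0.108% against 0.148%), in an intron of Runx1 and 6322 bp upstream of Tead4. The Runx1 peak had a fold of 2.17, below its MEF folds of 3.65 and 3.38. The Tead4 peak had a fold of 2.78 and no MEF peak. The germline list of 16 genes had 1, in an intron of the piRNA pathway gene Tdrd12 (fold 3.03; 0.0540% against 0.0484%), and the 4 reporter loci had 0 (against 0.0098%). With at most 4 peaks a list, these shares set no list apart from all reprogramming KO peaks.

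Words of SINE sequence were found in a higher share of the KO-only peaks than of other reprogramming peaks. The search asks for exact 9-base words and misses diverged or partial copies, so its shares are lower than those of peaks with any SINE. In a 500 bp window around the midpoint, at least 2 of 4 B1 words (TTTAATCCC, GGAGGCAGA, CAGCCTGGT and GAGTTCCAG, on the same strand of either direction) were found in 205 of 1853 (11.1%, interval 9.71 to 12.6). In the weak shared peaks the share was 2.92% (interval 2.74 to 3.11), in control-only peaks 1.58% (interval 1.22 to 2.04) and in all reprogramming KO peaks 3.37%. In the 1522 listed reprogramming intervals with a higher KO mean, which the rule kept out, it was 38.4% (interval 36.0 to 40.9). The KO-only peaks thus stood between the listed intervals and the unselected peaks. Of the bases in these words, 99.0% were masked as repeats in the reference. The share was much the same below and above a −log10 q of 10, at 11.0% and 11.7%.

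B2 words (GAGATGGCT, CAACCACAT, GAGATCTGA and TCTGAAGAC, at least 2 of 4) were chosen after values had been seen. They were found in 128 KO-only peaks (6.91%, interval 5.84 to 8.15), in 2.83% of weak shared peaks, in 2.25% of control-only peaks and in 2.47% of all reprogramming KO peaks. In the listed intervals with a higher KO mean the share was 3.35% (interval 2.56 to 4.38), below that of the KO-only peaks. B1 or B2 words were found in 315 KO-only peaks (17.0%), against 3.66% of control-only peaks. Masked repeats of any kind filled over 50% of the window in 27.0% of KO-only peaks, 20.8% of control-only peaks and 16.3% of weak shared peaks. The median GC content of the windows was 44.4%, 43.4% and 45.2% in the same order.

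The loose CTCF string, also chosen after values had been seen, was more frequent in KO-only peaks than B1 or B2 words as counted here. It was present in 362 KO-only peaks (19.5%, interval 17.8 to 21.4), against 8.43% of control-only peaks (interval 7.56 to 9.38), 8.50% of weak shared peaks and 6.78% of all reprogramming KO peaks. In the listed intervals with a higher KO mean it was present in 3.68%. In KO-only peaks it was present in 18.3% below a −log10 q of 10 and in 26.7% (interval 21.7 to 32.3) from 10 upward. Control-only peaks showed the same order, with 7.28% below 10 and 14.1% (interval 11.5 to 17.0) from 10 upward. Of the 362 KO-only peaks with the string, 97 also held at least 2 B2 words, 50 held 1 and 215 held none. The 265 with fewer than 2 were 14.3% of all KO-only peaks, against 6.71% of control-only peaks. A stricter form of the string, with 2 of its free positions restricted, was present in 5.07% (interval 4.16 to 6.17), against 3.16% of control-only peaks (interval 2.64 to 3.78) and 2.66% of all reprogramming KO peaks, a smaller gap. From a −log10 q of 10 upward the stricter form was present in 6.39% of KO-only and 6.05% of control-only peaks. Over all KO-only peaks the stricter form was less frequent than B1 words and than B2 words, so the order of these features depends on the string chosen. A matching string is not evidence that CTCF was bound.

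B1 words and the CTCF string were both present in 34 peaks, and at least one of them in 533 (28.8%), against 9.59% of control-only peaks. The CTCF string lay a median of 77 bp from the midpoint, within 100 bp in 298 of 362 peaks, and inside the peak in 351. The B1 words centred a median of 157.5 bp from the midpoint, and in 109 of 205 peaks (53.2%) the centre was inside the peak. In control-only peaks the median distance was 70.5 bp for the CTCF string (87.8% within 100 bp) and 160 bp for the B1 words, whose centre was inside the peak in 21 of 57 (36.8%, interval 25.5 to 49.8, against 46.3 to 59.9 in KO-only peaks). The 5′ end of the B1 pointed toward the midpoint in 144 of 205 peaks (70.2%, interval 63.7 to 76.1). In the weak shared peaks it did so in 53.1% (interval 49.8 to 56.3) and in the listed intervals with a higher KO mean in 67.2%. Control-only peaks, with 57 such windows, gave 66.7%, with an interval (53.7 to 77.5) that holds the KO-only value.

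**Figure D4:**
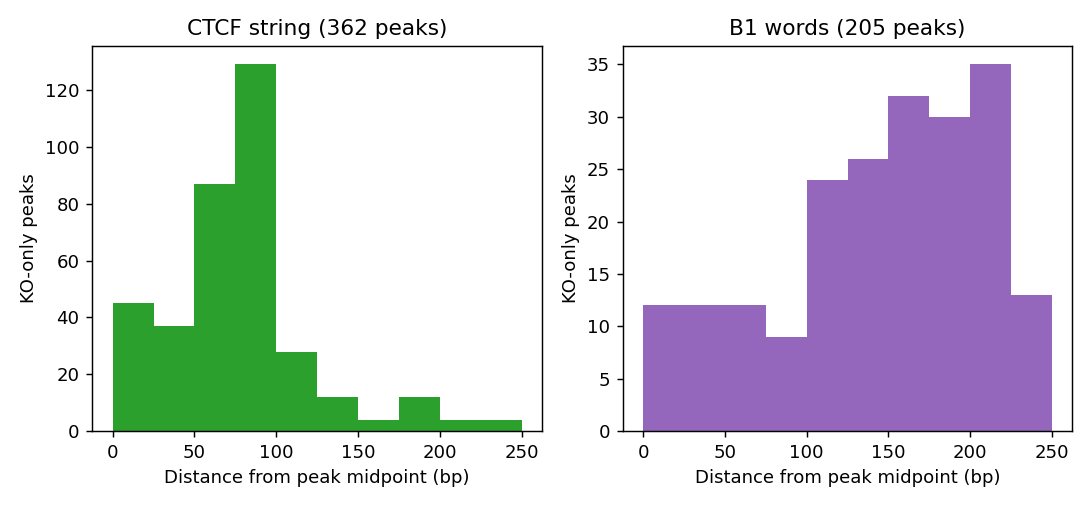
Number of KO-only peaks (vertical axis) by the distance in bp from the peak midpoint (horizontal axis, bins of 25 bp) to the nearest CTCF string (left, 362 peaks) and to the centre of the B1 words (right, 205 peaks). CTCF strings lie mostly within 100 bp of the midpoint, and B1 words mostly beyond 100 bp.

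Peaks with and without MEF overlap differed in these features. Among the 1302 peaks with no MEF peak, 13.4% (interval 11.6 to 15.3) held B1 words and 21.0% (interval 18.9 to 23.3) the AP-1 string TGANTCA, a motif of FOS and JUN dimers, which are abundant at fibroblast enhancers. Among the 459 peaks open in both MEF lists, 5.01% (interval 3.36 to 7.41) held B1 words and 39.4% (interval 35.1 to 44.0) the AP-1 string. The CTCF string was about equally frequent in the 2 classes, at 19.0% and 19.4%. Of the 50 peaks shared with MEF KO alone, 6 held B1 words, 7 B2 words and 13 the CTCF string. Peaks with B1 words overlapped any MEF peak in 31 of 205 cases (15.1%), and those without in 520 of 1648 (31.6%).

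Of the strings of the reprogramming factors, those of KLF and SOX were less frequent in KO-only peaks than in weak shared peaks, and that of OCT was more frequent. The KLF string GGGNGNGG was present in 770 (41.6%, interval 39.3 to 43.8), against 45.0% of weak shared peaks, 40.8% of control-only peaks and 47.3% of all reprogramming KO peaks. The SOX strings CCTTTGT or CCATTGT were present in 18.8% (interval 17.1 to 20.7), below the 22.5% of weak shared peaks, the 24.6% of control-only peaks and the 22.9% of all reprogramming KO peaks. The OCT string ATTTGCAT was present in 96 peaks (5.18%, interval 4.26 to 6.29), against 3.50%, 3.85% and 3.37%. The AP-1 string was present in 26.1%, against 23.6%, 23.8% and 23.6%, and the TEAD string CATTCCA in 9.77%, against 9.41%, 9.70% and 8.70%. Within the KO-only peaks the KLF string was present in 51.2% (interval 44.4 to 58.0) of peaks with B1 words and in 40.4% (interval 38.0 to 42.7) of those without. The strings overlap here. Of the 141 peaks that held the first B1 word, 46 had a KLF string in the 25 bases before it, inside the B1 itself.

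**Figure D5:**
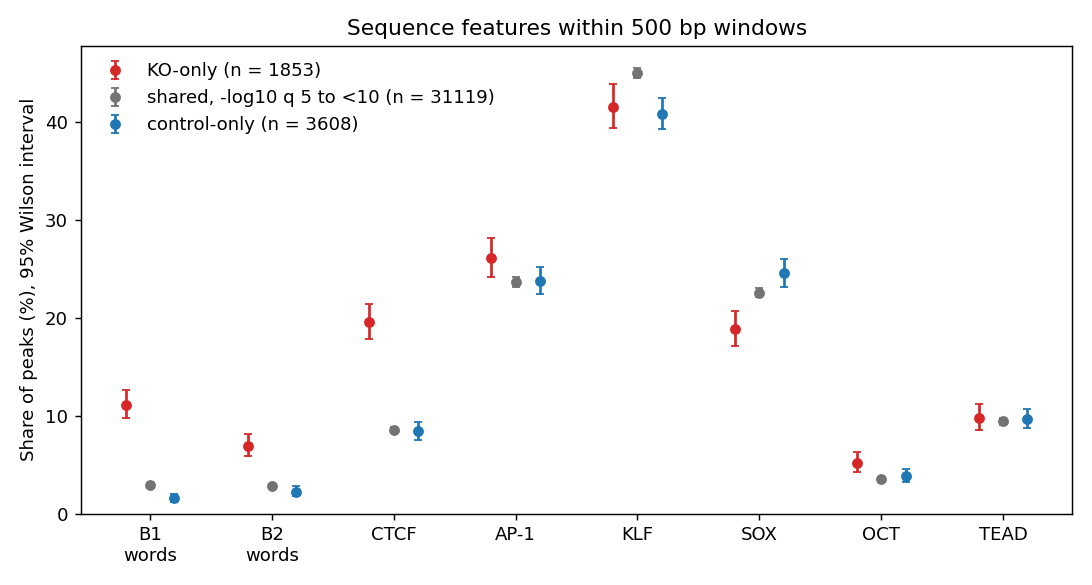
Share of peaks (vertical axis, percent, with 95% Wilson intervals) whose 500 bp window holds each sequence feature, for KO-only peaks (red), weak peaks shared by KO and control (grey) and control-only peaks (blue). KO-only peaks stand above both other sets for B1 words, B2 words and the CTCF string, and within 4 percentage points of both for the AP-1, KLF, OCT and TEAD strings.

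Few KO-only peaks lay beside the listed intervals with a higher KO mean. One of these was within 10 kb of 47 KO-only peaks (2.54%) and of 38 control-only peaks (1.05%). The nearest gene was also the nearest gene of such an interval for 243 KO-only peaks (13.1%) and for 389 control-only peaks (10.8%). By chromosome, the KO-only peaks made up between 0.704% (Y, with 2 peaks) and 1.54% (X, with 69) of the reprogramming KO peaks.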

How the data were processed

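Groups and replicates (4 groups of 3 libraries) came from the sample titles. The labels do not say whether replicates came from separate cultures, so p-values measure the spread between these libraries. Per the methods and the submitters' processing notes, the authors trimmed reads with cutadapt, aligned them to GRCm38.p6 with BWA, removed duplicate, mitochondrial and blacklisted reads, and called peaks with MACS2 at an FDR of 0.1 for each sample; the deposited broad peak lists number 1 per group, with fold enrichment (a ratio) and −log10 q. The deposited tables hold raw read counts, and the authors' normalised signal (count over size factor), for intervals at an FDR under 0.05; their own fold changes and p-values were not used. The authors' mean over 12 libraries (a normalised signal) was used only for the pooled reprogramming mean. Sequencing depth per library is unknown from these files.

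Peaks were overlapped by at least 1 bp, placed by midpoint with GENCODE M21 (promoter within 1000 bp), and read in 500 bp windows of GRCm38.p6, in which 0 peaks ran past a chromosome end. MEF counts were tested with edgeR 4.0.16 (quasi-likelihood, two-sided, R 4.3.3), with size factors recovered from the tables and Benjamini-Hochberg adjustment over 273256 merged intervals; DESeq2 1.42.0 was an alternative. The spread was fitted on the 480 listed rows alone. The fit was tested on simulated data.

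The peaks, lists and strings were chosen with earlier results of these data known. Named peaks were the 10 of largest −log10 q, those in the MEF table, up to 10 at promoters, up to 10 near fixed lists, and 2 on either side of the limit; others are marked as chosen after values were seen. One named peak is not reported here.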

Additional observations from a re-analysis of the deposited data

How the results depend on the processing

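With a minimum −log10 q of 3 the number of KO-only peaks was 4558, and with 10 it was 266; 3 other definitions left it within 1.5 times of 1853. Asking for an overlap of 50% of the peak gave shares of 24.7% (MEF KO) and 23.8% (MEF control), and a minimum of 10 gave 29.7% for both. Promoters made up 1.24% within 500 bp and 4.32% within 2000 bp. B1 words were found in 4.64% at a 300 bp window, 20.2% at 1000 bp, 19.1% with 1 word and 6.10% with 3. The control-only shares in the same order were 0.637%, 4.46%, 6.32% and 0.804%. At 300 bp the KLF string was present in 31.8%, the AP-1 string in 21.7% and B2 words in 5.40%. Settings added after seeing the data gave 5.07% for the strict CTCF string, 15.3% for the loose one at a minimum of 3 and 26.7% at 10, and 6.86% and 14.1% in control-only peaks at these minimums. At a minimum of 10 the strict form was present in 6.39% of KO-only and 6.05% of control-only peaks.

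Of the 6 MEF intervals, DESeq2, the count filter and the replicate block each called 6, no scaling called 4 (without Rab11fip3 and Ddx19b), and leaving out 1 library called 5 to 6. TMM over the listed rows, which centres rows of which nearly all were higher in KO, called 0 and turned Rapgef5 (-0.046), Rab11fip3 (-0.13) and Ddx19b (-0.10) negative; over all listed rows it called 44 higher and 51 lower, against 477 and 1 in the fit above, and no scaling called 225 higher. Same-numbered libraries correlated in their deviations by 0.21, 0.14 and 0.04, so the numbers were not taken to pair the libraries; the block left 477 higher. The median log2 fold change over the listed rows was 1.08, and 0.03 with TMM. The depth of the peak lists is unknown, and with 1 list per group their values have no spread.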
